A study of Mus musculus with 10 samples.

Results

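Solute carriers are membrane transporters that move sugars, amino acids, organic acids, metals, nucleosides, ions and vitamins into cells or between their compartments, and their transcripts were measured here in mouse embryos at the 8-cell stage. A gene was taken as a member when its symbol followed the pattern Slc, number, a, number and when both control libraries, or both libraries of another group, reached at least 1 linear unit of abundance. This gave 146 members of 331 such symbols among 24421 genes, and 185 did not reach the threshold, 7 of them at 0 in all 10 libraries. The members were thus selected on measured levels, so their detection is not a finding, and 10758 genes of the whole table would pass the same threshold. Of the members, 122 passed in siKlf5, 124 in siTfap2c, 132 in Arpc1bE_CdxE1_KO, 135 in CdxE2_KO and 125 in Ctrl. In all 5 groups 109 passed, and 21 passed only outside Ctrl. A member that passed only in groups where it is high is set to lie above the others there by the choice itself, so called members of that kind are named beside the counts that hold them. Just inside the threshold were Slc16a14, whose lower CdxE2_KO library stood at 1.02 linear units, and Slc37a4 (1.05 units in siTfap2c). Just outside were Slc25a13 (0.991 units in siTfap2c) and Slc12a9 (0.971 units in Ctrl). By substrate, 23 of 52 amino acid carriers, 22 of 32 metal carriers, 7 of 23 sugar carriers, 6 of 14 monocarboxylate carriers and 5 of 8 nucleoside carriers were members. A further 32 of 47 mitochondrial carriers, 20 of 53 ion exchangers and cotransporters and 9 of 13 vitamin and cofactor carriers were members, and the remaining 22 fell into 10 smaller classes.

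The study compared 5 groups of 2 libraries each. The groups were siKlf5, a knockdown of the Krüppel-like transcription factor Klf5; siTfap2c, a knockdown of the AP-2 family transcription factor Tfap2c; Arpc1bE_CdxE1_KO and CdxE2_KO, both labelled as knockouts of a Tfap2c motif; and Ctrl, the control. All embryos were of BDF1 genotype, a hybrid mouse strain, and were stripped of the zona pellucida and polar bodies before total RNA was sequenced. The siRNA sequences, the positions of the deleted motifs and the number of embryos in a library were not among the labels used here. Because the labels do not say whether the libraries of a group came from separate pools of embryos, the p-values rest on the spread among these libraries alone, which may be technical. In whole embryos, fewer cells of a type and less RNA per cell cannot be told apart.

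The labels were checked on the targeted genes. Klf5 stood at 4.36 and 4.17 log2 units in siKlf5 libraries, against 7.20 and 7.13 in Ctrl libraries. Tfap2c stood at 3.94 and 4.09 in siTfap2c libraries, against 6.61 and 6.61 in Ctrl libraries. Cdx2 lay between 0.77 and 1.53 in the 4 motif knockout libraries, against 2.35 and 2.48 in Ctrl libraries. Cdx2 was also low in the 4 knockdown libraries, between 0.23 and 1.23. Arpc1b, the other gene of the labels, stood at 3.27 and 3.30 in Arpc1bE_CdxE1_KO libraries and 4.84 and 4.66 in CdxE2_KO libraries, against 4.71 and 4.48 in Ctrl libraries. It stood at 4.21 and 4.28 in siKlf5 libraries and 1.24 and 1.26 in siTfap2c libraries. Klf5 was also lower in siTfap2c libraries, at 5.32 and 5.45. Of 6 markers of the 8-cell embryo, the targets among them, 4 to 5 exceeded 1 linear unit in each library, and of 13 markers of cumulus cells, erythroid cells and fibroblasts, 0 reached 1 unit in any library. The summed linear level of the embryo markers was 192 and 198 units in siKlf5 libraries and 88.5 and 98.7 in siTfap2c libraries, against 349 and 340 in Ctrl libraries. That sum takes in Klf5 and Tfap2c, so the lower levels of the targets themselves are part of its fall. The pluripotency factor Pou5f1 stood at 4.89 and 5.14 log2 units in siTfap2c libraries, against 6.48 and 6.50 in Ctrl libraries. The part of these differences in the knockdown results was not tested. Every value is log2(abundance + 1), and the kind of abundance is not named, so levels are compared between groups and not between genes. The linear abundances of a library added up to 478651 to 498621 units in the 4 motif knockout libraries, against 388454 to 395401 in the knockdown and Ctrl libraries. The median of all genes tested lay 0.27 log2 units higher in Arpc1bE_CdxE1_KO and 0.29 higher in CdxE2_KO than in Ctrl. Motif knockout differences are read against that shift, and with the library sums made equal they are given again as values or as the number of calls kept. Both knockdowns stand in tables without a control, so each knockdown value is set against Ctrl values of another table, which may have been scaled apart.

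Glucose carriers of the Slc2a family let sugar cross membranes down its gradient, and the mouse embryo before compaction is known to live mainly on pyruvate and lactate, which the monocarboxylate carriers of the Slc16a family move together with a proton. Heterodimeric exchangers, in which a light chain such as Slc7a5 pairs with the heavy chain Slc3a2, bring in large neutral amino acids. Among metal carriers, the Slc39a family moves zinc and related metals into the cytoplasm and the Slc30a family moves zinc out of it or into vesicles, while concentrative (Slc28a) and equilibrative (Slc29a) carriers move nucleosides.

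The promoters of 4 members that the results turn on are shown first. Slc12a7 and Slc39a2 had the largest falls in siTfap2c, Slc41a2 shared the largest rise with Slc19a3, and Slc28a3 fell in both knockdowns. Each window runs 5′ to 3′ from 250 bases before to 50 bases after the annotated start, from RefSeq on GRCm38.p6, and capitals mark matches to the AP-2 motif GCCNNNGGC, which reads the same on both strands.
Slc12a7, chr13:73763410-73763709, + strand: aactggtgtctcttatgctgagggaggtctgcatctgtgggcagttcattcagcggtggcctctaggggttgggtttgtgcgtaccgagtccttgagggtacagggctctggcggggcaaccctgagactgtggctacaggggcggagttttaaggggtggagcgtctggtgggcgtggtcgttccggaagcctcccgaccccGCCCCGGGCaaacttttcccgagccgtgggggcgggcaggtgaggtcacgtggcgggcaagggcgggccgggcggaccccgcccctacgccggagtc
Slc39a2, chr14:51893360-51893659, + strand: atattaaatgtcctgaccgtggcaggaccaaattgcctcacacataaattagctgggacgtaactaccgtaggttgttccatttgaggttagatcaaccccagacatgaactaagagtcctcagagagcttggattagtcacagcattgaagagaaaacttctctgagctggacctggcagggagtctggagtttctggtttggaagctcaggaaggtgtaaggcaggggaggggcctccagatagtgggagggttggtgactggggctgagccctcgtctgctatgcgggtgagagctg
Slc41a2, chr10:83337768-83338067, - strand: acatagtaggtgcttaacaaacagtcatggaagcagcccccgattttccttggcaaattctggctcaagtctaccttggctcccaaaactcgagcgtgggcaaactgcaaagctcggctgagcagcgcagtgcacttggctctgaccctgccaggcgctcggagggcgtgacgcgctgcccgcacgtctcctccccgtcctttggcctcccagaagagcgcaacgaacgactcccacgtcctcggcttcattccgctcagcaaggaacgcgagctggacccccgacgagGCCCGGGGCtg
Slc28a3, chr13:58610828-58611127, - strand: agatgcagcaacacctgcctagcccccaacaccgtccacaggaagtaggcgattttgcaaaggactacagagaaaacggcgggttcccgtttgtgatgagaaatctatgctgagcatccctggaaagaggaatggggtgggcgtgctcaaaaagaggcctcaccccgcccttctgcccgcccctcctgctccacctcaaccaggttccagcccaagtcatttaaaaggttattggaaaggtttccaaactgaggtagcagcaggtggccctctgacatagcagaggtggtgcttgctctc
The Slc12a7 window, 1 of 2 annotated for that gene, holds a match that begins 47 bases before its RefSeq start. Both Slc12a7 windows, and that of Slc39a2, lie inside the GENCODE spans of these genes given below, not at their first base. The Slc41a2 window holds a match that begins 39 bases after its RefSeq start. The windows of Slc39a2 and Slc28a3 hold none of these letters in that order. Windows were given for 107 of the 146 members. The motif was found for 4 of 13 members lower in siTfap2c (30.8%), for 8 of 21 members higher there (38.1%), for 32.7% of members with a window, and for 18.5% of the 27025 genes with one. The KLF motif CCNCNCCC, searched on both strands and free to overlap the other, was found for 4 of 6 members lower in siKlf5 (66.7%), for 75.7% of members and for 51.9% of all genes. A match describes the letters of the window and is not a binding site.

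The knockdown of Tfap2c was the contrast with the most solute carrier calls against Ctrl. A lone value in parentheses after a called gene or group is its log2 fold change. Of 146 members tested, 50 were called at a limma adjusted p under 0.05, 26 higher and 24 lower, which is 34.2% of the members beside 24.6% of all 11195 genes tested. In all genes 12.6% were higher and 11.9% lower. At least 2-fold changes were called for 15 members, 10.3% beside 4.94% of all genes. Among members that passed the level threshold in Ctrl, 22 were higher and 22 lower, and among the 21 that passed only elsewhere, 4 were higher (Slc16a3, Slc23a1, Slc36a1 and Slc43a2) and 2 lower (Slc16a13 and Slc25a21). Slc52a3, counted as lower, passed in Ctrl alone. Slc6a15, Slc7a7, Slc26a11 and Slc30a2, also counted as lower, passed in Ctrl but not in siTfap2c. The median log2 fold change was 0.07 over the members and 0.04 over all genes. The members' share of the linear sum was 0.611% and 0.617% in siTfap2c libraries, against 0.546% and 0.558% in Ctrl libraries. The count was 28 without siTfap2c replicate 1, 33 without siTfap2c replicate 2, 29 without Ctrl replicate 1 and 29 without Ctrl replicate 2, and 22 members kept their call in all 4 of these fits.

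In siKlf5, 9 members were called and all 9 were lower, which is 6.16% of the members beside 7.52% of all genes. Of the 9, Slc52a3 passed the level threshold in Ctrl alone, and the other 8 passed in Ctrl and in other groups. Slc16a5 and Slc28a3 did not pass in siKlf5 itself. In all genes 2.25% were called higher and 5.27% lower. The limma count of members called higher was 0, while 13 were higher at an unadjusted p under 0.05. The median log2 fold change was -0.08 over the members and -0.02 over all genes. The count of 9 rested on every library: it was 4 without siKlf5 replicate 1 (3 of the 9, and Slc25a41, then called higher), 1 without siKlf5 replicate 2, 1 without Ctrl replicate 1 and 2 without Ctrl replicate 2, and it was 4 without the filter on low values. With libraries centred on their medians 6 were called, 1 higher and 5 lower.

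The motif knockouts were fitted within their own table, where 145 members were tested. In Arpc1bE_CdxE1_KO 14 members were called, 12 higher and 2 lower, which is 9.66% beside 24% of all 10920 genes tested. In CdxE2_KO 31 were called, 29 higher and 2 lower, which is 21.4% beside 29.9% of all genes. Of all genes 23.2% were higher and 0.815% lower in Arpc1bE_CdxE1_KO, and 28.5% were higher and 1.44% lower in CdxE2_KO. The median log2 fold change of members was 0.19 in Arpc1bE_CdxE1_KO and 0.21 in CdxE2_KO, both under the medians of all genes given above. Of the members that passed the threshold only outside Ctrl, Slc38a2 was called, higher in both. With library sums made equal, 4 members were called in Arpc1bE_CdxE1_KO, 2 higher and 2 lower, which is 2.76% beside 2.87% of all genes. In CdxE2_KO 9 were then called, 5 higher and 4 lower, 6.21% beside 6.37% of all genes. With libraries centred on their medians the counts were 5 in Arpc1bE_CdxE1_KO, 2 higher and 3 lower, and 10 in CdxE2_KO, 4 higher and 6 lower. Without 1 library the Arpc1bE_CdxE1_KO count was 10 (without its replicate 1, with 5 of the 14 among them), 15 (without its replicate 2, with 11 of the 14), 2 (without Ctrl replicate 1) and 2 (without Ctrl replicate 2). The CdxE2_KO count was then 15 (without its replicate 1), 5 (without its replicate 2), 6 (without Ctrl replicate 1) and 4 (without Ctrl replicate 2). Between CdxE2_KO and Arpc1bE_CdxE1_KO limma called 0 members, beside 0.0458% of all genes, while 17 members had an unadjusted p under 0.05.

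**Figure D1:**
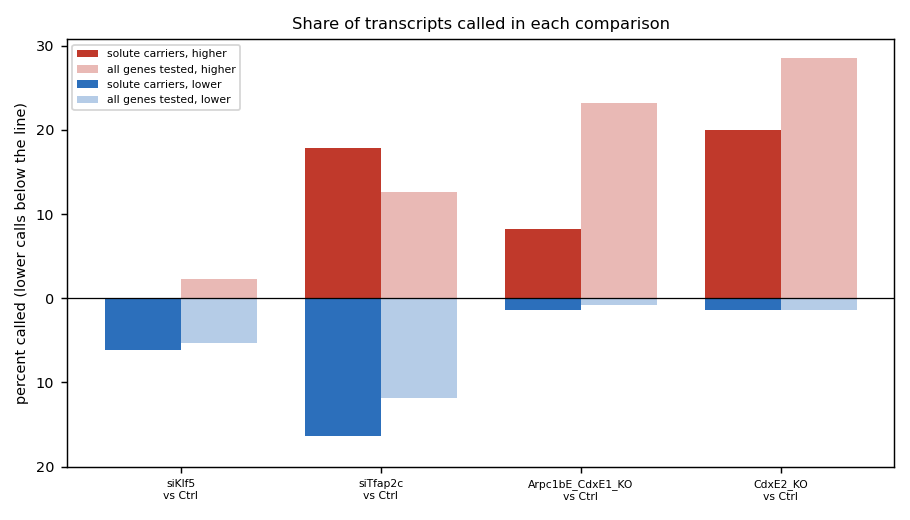
Percent of genes called by limma in each contrast with Ctrl, for solute carrier members (left bar of each pair) and all genes tested (right bar), with higher calls above the line and lower calls below it. In siTfap2c 34.2% of members were called beside 24.6% of all genes, and in the motif knockouts the members' share as deposited lay under that of all genes, at 9.66% beside 24% in Arpc1bE_CdxE1_KO and 21.4% beside 29.9% in CdxE2_KO; with equal library sums the shares were 2.76% beside 2.87% in Arpc1bE_CdxE1_KO and 6.21% beside 6.37% in CdxE2_KO.

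Among the 7 sugar carriers, Slc2a3, the neuronal and embryonic glucose carrier GLUT3 (chr6:122727809-122801640, - strand, GENCODE M21 on mm10), differed from Ctrl in opposite directions in siTfap2c and the motif knockouts. It stood at 3.80 and 3.59 log2 units in siKlf5 libraries, 2.67 and 2.69 in siTfap2c libraries, 4.58 and 4.31 in Arpc1bE_CdxE1_KO libraries and 4.74 and 5.02 in CdxE2_KO libraries, against 3.95 and 3.79 in Ctrl libraries. The groups did not overlap between siTfap2c and Ctrl, nor between either motif knockout and Ctrl. Slc2a3 fell in siTfap2c (log2 fold change -1.19 ± 0.14 SE, adjusted p = 0.00027) and rose in CdxE2_KO (log2 fold change 1.01 ± 0.14 SE, adjusted p = 0.006) and Arpc1bE_CdxE1_KO (log2 fold change 0.58 ± 0.14 SE, adjusted p = 0.03), while in siKlf5 the difference was -0.17 (adjusted p = 0.5). At equal library sums the CdxE2_KO difference was 0.73 (adjusted p = 0.031) and that of Arpc1bE_CdxE1_KO was 0.26 (adjusted p = 0.31). A pseudogene, Gm4482, overlaps Slc2a3 on the same strand, so their reads may not be told apart. Slc2a3 lost the Arpc1bE_CdxE1_KO call without Arpc1bE_CdxE1_KO replicate 1, Ctrl replicate 1 or Ctrl replicate 2 (highest adjusted p 0.15). The siTfap2c and CdxE2_KO calls held without each of their libraries.

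Other sugar carriers were called as well. Slc45a4, of a family of proton-coupled sugar carriers, stood at 3.65 and 3.70 log2 units in siTfap2c libraries, against 4.33 and 4.48 in Ctrl libraries, and fell (log2 fold change -0.73 ± 0.12 SE, adjusted p = 0.0018). Its relative Slc45a3 stood at 4.18 and 4.64 log2 units in siTfap2c libraries, against 3.61 and 4.02 in Ctrl libraries, and rose (log2 fold change 0.59 ± 0.17 SE, adjusted p = 0.033). Of the glucose-phosphate carrier family, Slc37a1 stood at 2.42 and 2.55 log2 units in siTfap2c libraries, against 1.91 and 2.02 in Ctrl libraries, and rose (log2 fold change 0.53 ± 0.13 SE, adjusted p = 0.015), as did Slc37a3 (log2 fold change 0.46 ± 0.15 SE, adjusted p = 0.048). Slc37a3 was also higher in Arpc1bE_CdxE1_KO (0.53) and CdxE2_KO (0.73), and Slc45a3 in CdxE2_KO (0.47). Scaled to equal library sums, Slc37a3 differed by 0.29 (adjusted p = 0.32) in Arpc1bE_CdxE1_KO and 0.52 (adjusted p = 0.093) in CdxE2_KO, and Slc45a3 by 0.19 (adjusted p = 0.46) in CdxE2_KO. So 3 of 7 sugar carriers rose and 2 fell in siTfap2c, 2 rose in Arpc1bE_CdxE1_KO, 3 rose in CdxE2_KO, and in siKlf5 the limma count was 0, with 1 at an unadjusted p under 0.05. Over all genes tested, limma called 12.6% higher and 11.9% lower in siTfap2c, and 7.52% in siKlf5. It called 23.2% higher in Arpc1bE_CdxE1_KO and 28.5% higher in CdxE2_KO. The median log2 fold change of the 7 was -0.07 in siKlf5, 0.15 in siTfap2c, 0.12 in Arpc1bE_CdxE1_KO and 0.23 in CdxE2_KO. Slc2a8, the intracellular carrier GLUT8, was not called in any contrast and differed most in CdxE2_KO, by -0.50 (adjusted p = 0.062), and in siKlf5, by -0.47 (adjusted p = 0.11). Slc2a1, the carrier GLUT1 of most cell types, did not reach the threshold and lay between 0.40 and 0.87 log2 units in the 10 libraries. Slc37a3 lost the siTfap2c call without any 1 of the 4 libraries (highest adjusted p 0.21), Slc37a1 without siTfap2c replicate 1, siTfap2c replicate 2 or Ctrl replicate 1 (highest adjusted p 0.1), and Slc45a3 without siTfap2c replicate 2 or Ctrl replicate 1 (highest adjusted p 0.22). Slc45a4 kept the siTfap2c call without each of the 4 libraries in turn. Slc37a3 lost the Arpc1bE_CdxE1_KO call without any 1 of the 4 libraries (highest adjusted p 0.17). Slc45a3 lost the CdxE2_KO call without any 1 of the 4 libraries (highest adjusted p 0.25), and Slc37a3 without CdxE2_KO replicate 2, Ctrl replicate 1 or Ctrl replicate 2 (highest adjusted p 0.098).

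**Figure D2:**
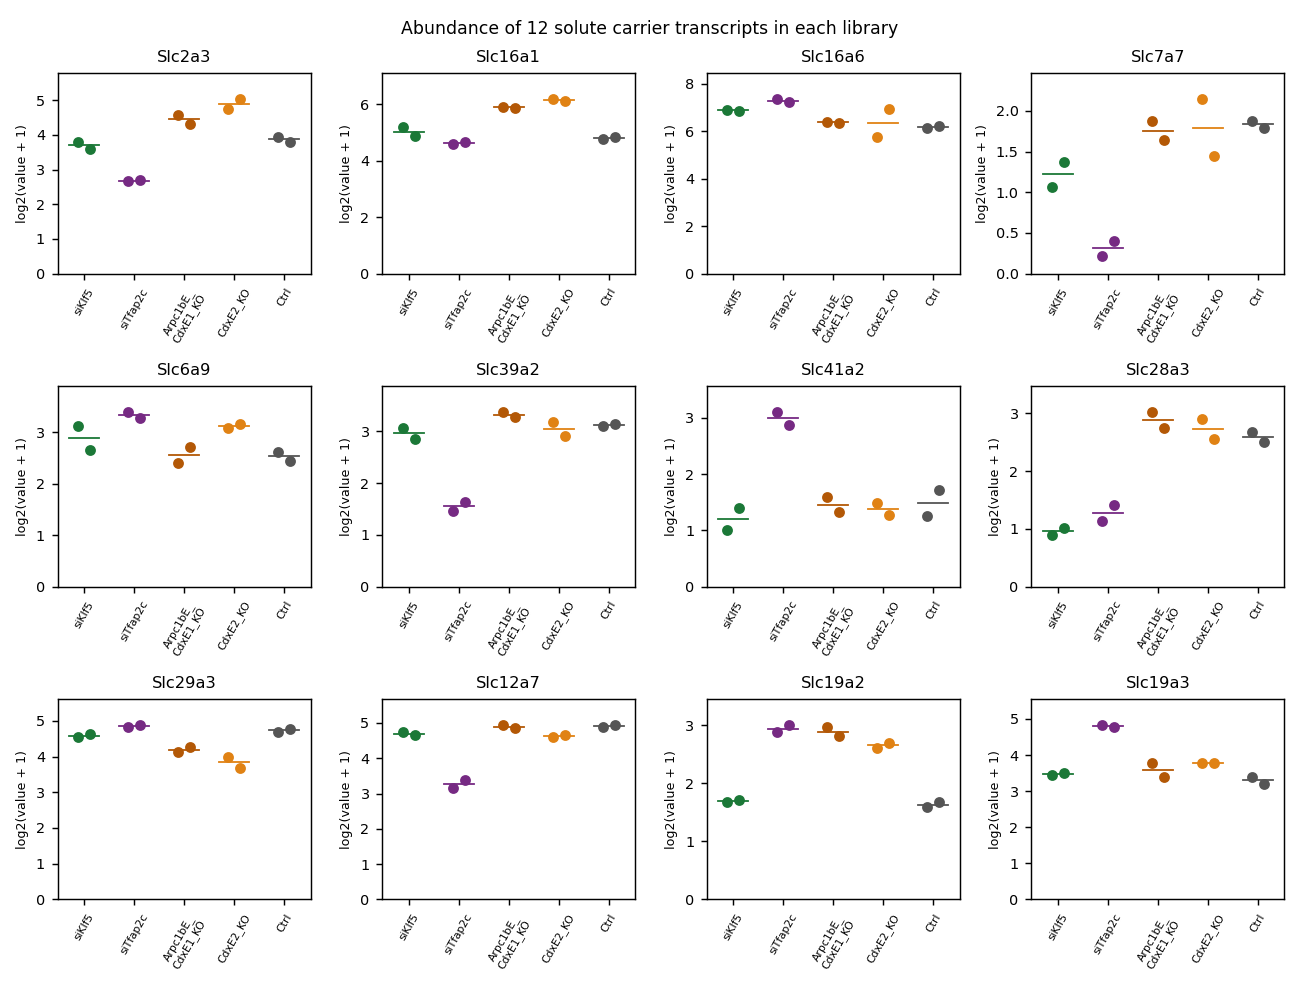
Level of 12 solute carriers in each library on a log2(abundance + 1) axis that starts at 0 and is scaled per panel, with 1 point per library and a line at the group mean. Slc2a3 stands low in siTfap2c and high in the motif knockouts, Slc16a1 high in the motif knockouts, and Slc28a3 low in both knockdowns.

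The lactate and pyruvate carrier Slc16a1, known as MCT1 (chr3:104638668-104658462, + strand), had the largest rise of all members in CdxE2_KO. It stood at 5.20 and 4.88 log2 units in siKlf5 libraries, 4.60 and 4.68 in siTfap2c libraries, 5.91 and 5.89 in Arpc1bE_CdxE1_KO libraries and 6.18 and 6.12 in CdxE2_KO libraries, against 4.77 and 4.84 in Ctrl libraries. Both libraries of each motif knockout lay above all 6 other libraries. It rose in Arpc1bE_CdxE1_KO (log2 fold change 1.10 ± 0.08 SE, adjusted p = 0.00088) and in CdxE2_KO (log2 fold change 1.35 ± 0.08 SE, adjusted p = 0.0004), and with equal library sums the differences were 0.78 (adjusted p = 0.006) in Arpc1bE_CdxE1_KO and 1.06 (adjusted p = 0.0013) in CdxE2_KO. Both calls held without each of their libraries. In siKlf5 it differed from Ctrl by 0.24 (adjusted p = 0.22) and in siTfap2c by -0.16 (adjusted p = 0.31).

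Of the other 5 monocarboxylate carriers, 4 were called in a knockdown, and Slc16a14 was called in no contrast with Ctrl (-0.15 in siKlf5, -0.07 in siTfap2c, 0.27 in Arpc1bE_CdxE1_KO and 0.54 in CdxE2_KO). Slc16a6, which exports a ketone body from the zebrafish liver, stood at 7.34 and 7.21 log2 units in siTfap2c libraries, against 6.14 and 6.23 in Ctrl libraries, and rose in siTfap2c (log2 fold change 1.09 ± 0.28 SE, adjusted p = 0.02). In siKlf5 libraries it stood at 6.91 and 6.86, a difference of 0.70 (adjusted p = 0.18). The direct difference between siTfap2c and siKlf5 was 0.39 (adjusted p = 0.36). The CdxE2_KO libraries lay apart, at 5.77 and 6.95. They enter the SE and adjusted p of both knockdowns, whose fit shares its spread over all 10 libraries. The SD of Slc16a6 was 0.83 in CdxE2_KO, against 0.04 in siKlf5, 0.10 in siTfap2c and 0.06 in Ctrl. Slc16a6 overlaps Amz2 and Arsg on the opposite strand, and since the counting strand is not given in the sources used here, their reads may not be told apart. Slc16a3, the lactate exporter MCT4, stood at 1.06 and 1.23 log2 units in siTfap2c libraries, against 0.57 and 0.62 in Ctrl libraries, and also rose (log2 fold change 0.55 ± 0.15 SE, adjusted p = 0.027). Slc16a13 stood at 0.30 and 0.29 log2 units in siTfap2c libraries, against 0.98 and 0.78 in Ctrl libraries, and fell (log2 fold change -0.59 ± 0.15 SE, adjusted p = 0.019). Slc16a5 stood at 0.89 and 0.83 log2 units in siKlf5 libraries, against 1.73 and 1.80 in Ctrl libraries, and fell in siKlf5 (log2 fold change -0.91 ± 0.18 SE, adjusted p = 0.017). Slc16a6 and Slc16a3 lost the siTfap2c calls without any 1 of the 4 libraries (highest adjusted p 0.11 and 0.17), and Slc16a13 without siTfap2c replicate 1, siTfap2c replicate 2 or Ctrl replicate 1 (highest adjusted p 0.13). Slc16a5 lost the siKlf5 call without any 1 of the 4 libraries (highest adjusted p 0.1). Slc16a3 and Slc16a13 passed the threshold only outside Ctrl, Slc16a3 through siTfap2c and CdxE2_KO. In siTfap2c 2 of the 6 rose and 1 fell, these 2 members included, in siKlf5 1 fell, and in each motif knockout 1 rose. Among all genes, 12.6% rose and 11.9% fell in siTfap2c, and 5.27% fell in siKlf5. The rises were 23.2% in Arpc1bE_CdxE1_KO and 28.5% in CdxE2_KO. The median log2 fold change of the 6 was 0.13 in siKlf5, -0.11 in siTfap2c, 0.21 in Arpc1bE_CdxE1_KO and 0.45 in CdxE2_KO. Of the mitochondrial pyruvate carrier, which has another symbol, Mpc1 was lower in siKlf5 (-0.70, adjusted p = 0.042), and Mpc2 was higher in Arpc1bE_CdxE1_KO (0.55) and CdxE2_KO (0.43). Mpc2 was not called with equal library sums, at 0.24 (adjusted p = 0.24) in Arpc1bE_CdxE1_KO and 0.16 (adjusted p = 0.4) in CdxE2_KO.

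Amino acid carriers were called in both directions in siTfap2c, where 12.6% of all genes were higher and 11.9% lower. Of the 23 carriers 6 rose and 4 fell, with Slc36a1 and Slc43a2 of the rises in members that passed the threshold only outside Ctrl. The largest fall was that of Slc7a7, the light chain y+LAT1 that exports cationic amino acids, which stood at 0.22 and 0.40 log2 units in siTfap2c libraries, against 1.88 and 1.79 in Ctrl libraries (log2 fold change -1.53 ± 0.23 SE, adjusted p = 0.0013). Slc7a7 overlaps Oxa1l on the opposite strand. Slc7a2, a cationic amino acid carrier, stood at 2.46 and 1.99 log2 units in siTfap2c libraries, against 2.87 and 3.10 in Ctrl libraries, and fell (log2 fold change -0.76 ± 0.22 SE, adjusted p = 0.034). The taurine carrier Slc6a6, whose substrate protects embryos against osmotic stress, stood at 5.55 and 5.50 log2 units in siTfap2c libraries, against 5.95 and 6.01 in Ctrl libraries, and fell (log2 fold change -0.46 ± 0.10 SE, adjusted p = 0.0084). Slc6a15, a neutral amino acid carrier, was the other fall (-0.66).

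The rises in siTfap2c took in acidic, glycine and neutral amino acid carriers. Slc1a1, the glutamate and aspartate carrier EAAC1, stood at 6.46 and 6.52 log2 units in siTfap2c libraries, against 5.94 and 5.91 in Ctrl libraries (log2 fold change 0.57 ± 0.09 SE, adjusted p = 0.0016). Slc6a9, the glycine carrier GLYT1 by which the cleavage-stage embryo takes up glycine as an osmolyte, stood at 3.39 and 3.27 log2 units in siTfap2c libraries, against 2.62 and 2.44 in Ctrl libraries (log2 fold change 0.80 ± 0.17 SE, adjusted p = 0.0081). It overlaps B4galt2 and Ccdc24 on the opposite strand. Slc36a1, a proton-coupled amino acid carrier of lysosomes, stood at 1.75 and 1.73 log2 units in siTfap2c libraries, against 0.92 and 0.93 in Ctrl libraries (log2 fold change 0.81 ± 0.20 SE, adjusted p = 0.015), and is a member through siTfap2c and CdxE2_KO, not Ctrl. Slc7a6 (0.66), a light chain related to Slc7a7, Slc43a2 (0.65) and Slc38a6 (0.61) also rose. Slc36a1, Slc43a2 and Slc38a6 lost the siTfap2c calls without any 1 of the 4 libraries (highest adjusted p 0.08, 0.2 and 0.17), Slc7a2 without siTfap2c replicate 2, Ctrl replicate 1 or Ctrl replicate 2 (highest adjusted p 0.21), and Slc6a15 without siTfap2c replicate 1 or Ctrl replicate 1 (highest adjusted p 0.07). Slc6a9 lost the siTfap2c call without siTfap2c replicate 1 or Ctrl replicate 2 (highest adjusted p 0.061), and Slc6a6 without siTfap2c replicate 2 or Ctrl replicate 2 (highest adjusted p 0.058). Slc7a7, Slc1a1 and Slc7a6 kept the siTfap2c calls without each of the 4 libraries in turn.

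In CdxE2_KO 6 of 23 amino acid carriers rose and in Arpc1bE_CdxE1_KO 1 did, Slc38a2, which also rose in CdxE2_KO. Over all genes tested, 28.5% were called higher in CdxE2_KO and 23.2% in Arpc1bE_CdxE1_KO. Slc7a2 stood at 3.64 and 3.98 log2 units in CdxE2_KO libraries, against 2.87 and 3.10 in Ctrl libraries, higher in CdxE2_KO (0.82) where it was lower in siTfap2c. Slc1a5, the glutamine carrier ASCT2, stood at 3.60 and 3.69 log2 units in CdxE2_KO libraries, against 2.88 and 2.86 in Ctrl libraries (0.78). Slc7a5, the light chain LAT1 of the large neutral amino acid exchanger, stood at 6.23 and 6.15 log2 units in CdxE2_KO libraries, against 5.62 and 5.49 in Ctrl libraries (0.63), and Slc6a9 (0.60) and Slc16a10 (0.54), a carrier of aromatic amino acids, were also higher. Slc38a2, the system A carrier SNAT2, is a member through siKlf5 and both motif knockouts and not through Ctrl, so it was let in by groups where it is high. It stood at 1.40 and 1.49 log2 units in Arpc1bE_CdxE1_KO libraries and 1.63 and 1.94 in CdxE2_KO libraries, against 0.68 and 0.77 in Ctrl libraries. Its log2 fold change was 0.72 in Arpc1bE_CdxE1_KO (adjusted p = 0.03) and 1.06 in CdxE2_KO (adjusted p = 0.0086). On libraries of equal sum it was 0.56 (adjusted p = 0.13) in Arpc1bE_CdxE1_KO and 0.91 (adjusted p = 0.032) in CdxE2_KO. After scaling to equal sums 1 of these 6, Slc38a2, was still called higher in CdxE2_KO. In Arpc1bE_CdxE1_KO limma then called 0 of 23 amino acid carriers, with 1 higher and 1 lower at an unadjusted p under 0.05. The shares of all genes called at equal sums were 2.87% in Arpc1bE_CdxE1_KO and 6.37% in CdxE2_KO. Slc38a2 lost the Arpc1bE_CdxE1_KO call without any 1 of the 4 libraries (highest adjusted p 0.14). Slc6a9 and Slc16a10 lost the CdxE2_KO calls without any 1 of the 4 libraries (highest adjusted p 0.15 and 0.2), Slc38a2, Slc7a2 and Slc1a5 without CdxE2_KO replicate 2, Ctrl replicate 1 or Ctrl replicate 2 (highest adjusted p 0.06, 0.095 and 0.069), and Slc7a5 without Ctrl replicate 2 (highest adjusted p 0.053).

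Several well known carriers of the embryo were not called in any contrast with Ctrl. The heavy chain Slc3a2, partner of the Slc7a light chains, differed from Ctrl by -0.02 (adjusted p = 0.96) in siKlf5, -0.25 (adjusted p = 0.13) in siTfap2c, 0.24 (adjusted p = 0.18) in Arpc1bE_CdxE1_KO and 0.37 (adjusted p = 0.056) in CdxE2_KO. The cystine and glutamate exchanger Slc7a11 differed by 0.04 (adjusted p = 0.93) in siTfap2c and by 0.39 (adjusted p = 0.21) in CdxE2_KO. Slc6a14, a carrier of neutral and cationic amino acids, lay between 0.75 and 1.24 log2 units in all 10 libraries. In siKlf5 limma called 0 of 23 amino acid carriers, while 2 were higher and 2 lower at an unadjusted p under 0.05. The medians of the class were -0.09 in siKlf5, -0.04 in siTfap2c, 0.26 in Arpc1bE_CdxE1_KO and 0.37 in CdxE2_KO.

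Zinc and magnesium carriers had some of the largest changes in siTfap2c, where 4 of 22 metal carriers rose and 5 fell. Among all genes, 12.6% were higher and 11.9% lower there. Slc39a2, a zinc importer of the plasma membrane (chr14:51892889-51896745, + strand), stood at 1.47 and 1.64 log2 units in siTfap2c libraries, against 3.11 and 3.14 in Ctrl libraries, and fell (log2 fold change -1.57 ± 0.13 SE, adjusted p = 5.1e-05). Mettl17 overlaps it on the same strand, so part of its reads may belong to that gene. Slc41a2, a magnesium carrier (chr10:83230848-83337882, - strand), stood at 3.10 and 2.88 log2 units in siTfap2c libraries, against 1.26 and 1.71 in Ctrl libraries, and rose (log2 fold change 1.50 ± 0.21 SE, adjusted p = 0.00082). In neither gene did the siTfap2c libraries overlap any of the other 8. Slc30a2, which loads zinc into vesicles, stood at 0.24 and 0.16 log2 units in siTfap2c libraries, against 1.41 and 1.37 in Ctrl libraries, and fell (log2 fold change -1.19 ± 0.14 SE, adjusted p = 0.00039). It is a member through Ctrl and both motif knockouts and through neither knockdown, so it was let in by groups where it is high. Slc39a11, a zinc importer of the Golgi, stood at 2.51 and 2.64 log2 units in siTfap2c libraries, against 1.62 and 1.53 in Ctrl libraries, and rose (log2 fold change 1.00 ± 0.18 SE, adjusted p = 0.003). Cog1 and Sstr2 overlap Slc39a11 on the opposite strand.

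Smaller changes were called for other zinc carriers in siTfap2c. The zinc exporter Slc30a1 (-0.50) and the importer Slc39a4 (-0.42) fell, and Slc39a13 (0.51) and Slc39a1 (0.33) rose, the last of which has a pseudogene copy. Slc39a14, an importer of zinc, iron and manganese, stood at 2.07 and 1.65 log2 units in siKlf5 libraries, 2.24 and 2.24 in siTfap2c libraries and 3.56 and 3.40 in CdxE2_KO libraries, against 2.83 and 2.74 in Ctrl libraries, and was lower in siKlf5 (log2 fold change -0.93 ± 0.15 SE, adjusted p = 0.0078) and in siTfap2c (log2 fold change -0.55 ± 0.15 SE, adjusted p = 0.025), 2 contrasts that share the Ctrl libraries. It was higher in CdxE2_KO (log2 fold change 0.69). Slc39a10 was higher in Arpc1bE_CdxE1_KO (0.46) and CdxE2_KO (0.51), and Slc39a6 (0.73) and Slc30a5 (0.49) in CdxE2_KO. With equal library sums limma called 0 of 22 in either motif knockout, beside 2.87% of all genes in Arpc1bE_CdxE1_KO and 6.37% in CdxE2_KO. At an unadjusted p under 0.05, 0 were then higher and 1 lower in Arpc1bE_CdxE1_KO, and 2 higher and 1 lower in CdxE2_KO. The iron carrier Slc11a2 and the copper carrier Slc31a1 were not called, at -0.04 (adjusted p = 0.79) and 0.11 (adjusted p = 0.63) in siTfap2c. The medians of the 22 were -0.08 in siKlf5, 0.08 in siTfap2c, 0.16 in Arpc1bE_CdxE1_KO and 0.21 in CdxE2_KO. Slc39a1 and Slc39a14 lost the siTfap2c calls without any 1 of the 4 libraries (highest adjusted p 0.18 and 0.13), Slc30a1 and Slc39a4 without siTfap2c replicate 1, Ctrl replicate 1 or Ctrl replicate 2 (highest adjusted p 0.14 and 0.093), and Slc39a13 without siTfap2c replicate 2, Ctrl replicate 1 or Ctrl replicate 2 (highest adjusted p 0.27). Slc39a2, Slc41a2, Slc30a2 and Slc39a11 kept the siTfap2c calls without each of the 4 libraries in turn. Slc39a14 lost the siKlf5 call without siKlf5 replicate 2 or Ctrl replicate 1 (highest adjusted p 0.066). Slc39a10 lost the Arpc1bE_CdxE1_KO call without Arpc1bE_CdxE1_KO replicate 1, Ctrl replicate 1 or Ctrl replicate 2 (highest adjusted p 0.21). Slc39a14, Slc39a10 and Slc30a5 lost the CdxE2_KO calls without any 1 of the 4 libraries (highest adjusted p 0.068, 0.15 and 0.12), and Slc39a6 without CdxE2_KO replicate 2, Ctrl replicate 1 or Ctrl replicate 2 (highest adjusted p 0.072).

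Among the 5 nucleoside and nucleobase carriers, Slc28a3, the sodium-coupled nucleoside carrier CNT3 (chr13:58545399-58610877, - strand), fell in both knockdowns. It stood at 0.89 and 1.02 log2 units in siKlf5 libraries, 1.13 and 1.42 in siTfap2c libraries, 3.02 and 2.75 in Arpc1bE_CdxE1_KO libraries and 2.91 and 2.56 in CdxE2_KO libraries, against 2.68 and 2.50 in Ctrl libraries. All 4 knockdown libraries lay below all 6 others. Both were called, siKlf5 (log2 fold change -1.64 ± 0.17 SE, adjusted p = 0.0015) and siTfap2c (log2 fold change -1.31 ± 0.17 SE, adjusted p = 0.00065). The direct difference between siTfap2c and siKlf5 was 0.33 (adjusted p = 0.21). In Arpc1bE_CdxE1_KO it differed by 0.29 (adjusted p = 0.24) and in CdxE2_KO by 0.15 (adjusted p = 0.54). Slc28a3 kept the siKlf5 call without each of the 4 libraries in turn. It was the 1 member of the 9 called there to do so.

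Slc29a3, the equilibrative nucleoside carrier ENT3 of lysosomes and mitochondria, was the member that fell in both motif knockouts. It stood at 4.13 and 4.26 log2 units in Arpc1bE_CdxE1_KO libraries and 4.0 and 3.68 in CdxE2_KO libraries, against 4.68 and 4.78 in Ctrl libraries, and the groups did not overlap (log2 fold change -0.53 ± 0.13 SE, adjusted p = 0.03 in Arpc1bE_CdxE1_KO, and log2 fold change -0.89 ± 0.13 SE, adjusted p = 0.0065 in CdxE2_KO). Scaled to equal sums the differences were -0.85 (adjusted p = 0.025) in Arpc1bE_CdxE1_KO and -1.17 (adjusted p = 0.0067) in CdxE2_KO. Slc29a3 lost the Arpc1bE_CdxE1_KO call without Arpc1bE_CdxE1_KO replicate 1, Ctrl replicate 1 or Ctrl replicate 2 (highest adjusted p 0.15). Slc29a3 lost the CdxE2_KO call without Ctrl replicate 2 (highest adjusted p 0.051). Slc43a3, a purine nucleobase carrier, stood at 3.62 and 3.84 log2 units in siTfap2c libraries, against 4.43 and 4.42 in Ctrl libraries, and fell in siTfap2c (log2 fold change -0.70 ± 0.11 SE, adjusted p = 0.0014). Slc28a3 and Slc43a3 kept the siTfap2c calls without each of the 4 libraries in turn. The equilibrative carriers Slc29a1 (ENT1) and Slc29a2 (ENT2) were not called in any contrast with Ctrl, with Slc29a1 at 0.01 (adjusted p = 0.98) in siTfap2c and Slc29a2 at -0.41 (adjusted p = 0.13) in siKlf5. Of the 5 carriers, 0 were called higher by limma in any of the 4 contrasts, and at an unadjusted p under 0.05 1 was higher in CdxE2_KO and 0 in the others. Their median log2 fold change was -0.16 in siKlf5, -0.23 in siTfap2c, 0.12 in Arpc1bE_CdxE1_KO and -0.06 in CdxE2_KO. Limma called 2.25% of all genes higher in siKlf5, 12.6% in siTfap2c, 23.2% in Arpc1bE_CdxE1_KO and 28.5% in CdxE2_KO.

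**Figure D3:**
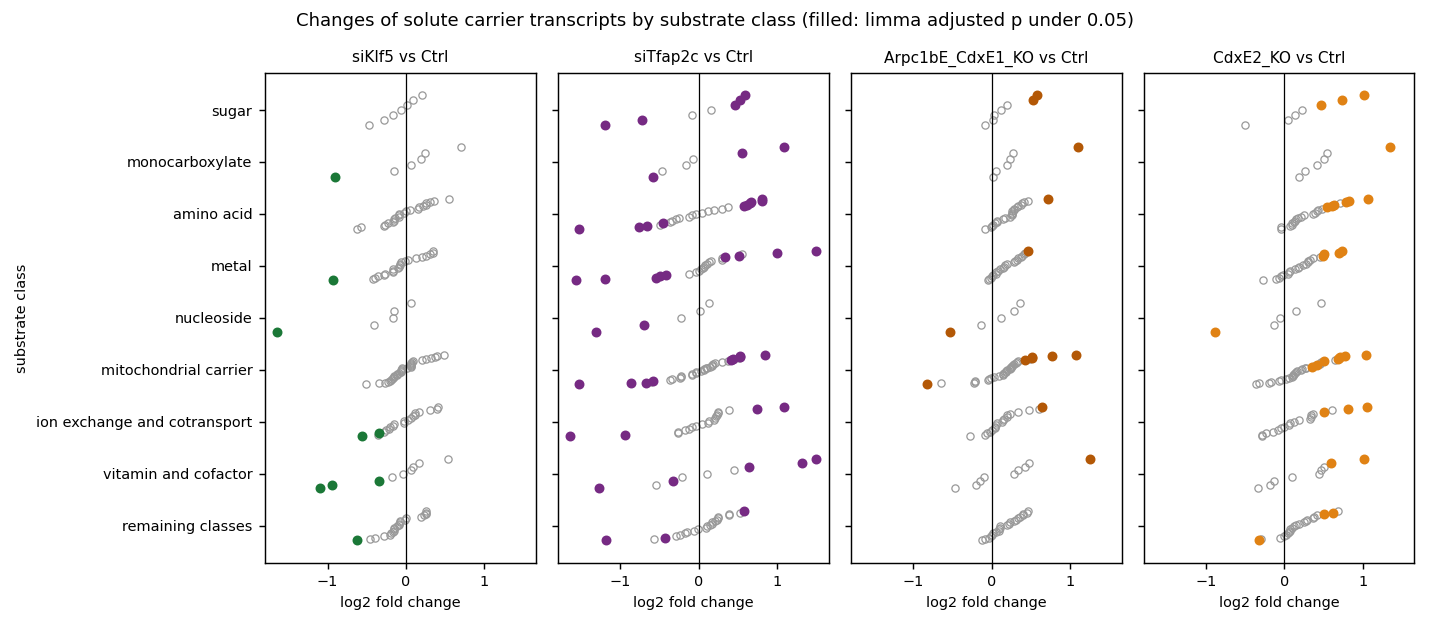
Log2 fold change against Ctrl of each member, by substrate class, in each of the 4 contrasts, with 1 point per gene, filled where limma called it and open where it did not; Slc52a3, listed at 0 in both siTfap2c libraries, is drawn at its fitted value. The siTfap2c points spread on both sides of 0 in the sugar, amino acid and metal classes, with Slc39a2 and Slc41a2 at -1.57 and 1.50, and all filled siKlf5 points lie below 0.

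Among 9 vitamin and cofactor carriers, both thiamine carriers rose in siTfap2c. Slc19a3 stood at 4.83 and 4.77 log2 units in siTfap2c libraries, against 3.40 and 3.21 in Ctrl libraries (log2 fold change 1.50 ± 0.13 SE, adjusted p = 5.8e-05). Slc19a2 stood at 2.88 and 3.00 log2 units in siTfap2c libraries, 2.97 and 2.81 in Arpc1bE_CdxE1_KO libraries and 2.61 and 2.69 in CdxE2_KO libraries, against 1.59 and 1.67 in Ctrl libraries, and rose in siTfap2c (log2 fold change 1.31 ± 0.12 SE, adjusted p = 8.3e-05), in Arpc1bE_CdxE1_KO (log2 fold change 1.26 ± 0.14 SE, adjusted p = 0.0037) and in CdxE2_KO (log2 fold change 1.02 ± 0.14 SE, adjusted p = 0.0053), 3 contrasts that share the Ctrl libraries. The 6 libraries of these groups all lay above the siKlf5 and Ctrl libraries. The motif knockout differences of Slc19a2 with equal library sums were 1.01 (adjusted p = 0.013) in Arpc1bE_CdxE1_KO and 0.80 (adjusted p = 0.023) in CdxE2_KO. As deposited, Slc19a3 differed by 0.28 (adjusted p = 0.21) in Arpc1bE_CdxE1_KO and 0.46 (adjusted p = 0.057) in CdxE2_KO. Slc19a2 and Slc19a3 kept the siTfap2c calls without each of the 4 libraries in turn. The motif knockout calls of Slc19a2 held without each library as well.

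Slc46a1, the proton-coupled folate carrier, stood at 3.10 and 2.62 log2 units in siKlf5 libraries, against 3.91 and 4.01 in Ctrl libraries, and fell in siKlf5 (log2 fold change -1.10 ± 0.19 SE, adjusted p = 0.011). Slc5a6, the carrier of biotin and pantothenate, stood at 6.45 and 6.40 log2 units in siKlf5 libraries and 6.40 and 6.50 in siTfap2c libraries, against 6.76 and 6.78 in Ctrl libraries, and was lower in siKlf5 (log2 fold change -0.35 ± 0.07 SE, adjusted p = 0.02) and siTfap2c (log2 fold change -0.33 ± 0.07 SE, adjusted p = 0.0082). As deposited it was not called in either motif knockout, and with equal library sums it was called lower, at -0.53 (adjusted p = 0.021) in Arpc1bE_CdxE1_KO and -0.48 (adjusted p = 0.024) in CdxE2_KO. Slc52a3, a riboflavin carrier, was listed at 0 in both siTfap2c libraries and stood at 0.15 and 0.51 log2 units in siKlf5 libraries, against 1.49 and 1.06 in Ctrl libraries, and was called lower in both knockdowns. It is a member through Ctrl alone, the group where it is high, so these calls are a description. Slc23a1, a vitamin C carrier that passed the threshold in both knockdowns alone, was higher in siTfap2c (0.64), and its relative Slc23a2 in CdxE2_KO (0.59), where the difference was 0.33 (adjusted p = 0.26) with equal library sums. Of the 9 carriers 3 fell in siKlf5, and 3 rose and 2 fell in siTfap2c, with Slc52a3 and Slc23a1 among them. Among all genes, 5.27% fell in siKlf5, and 12.6% rose and 11.9% fell in siTfap2c. Slc5a6 and Slc52a3 lost the siKlf5 calls without any 1 of the 4 libraries (highest adjusted p 0.12 and 0.24), and Slc46a1 without siKlf5 replicate 2, Ctrl replicate 1 or Ctrl replicate 2 (highest adjusted p 0.077). Slc23a1 lost the siTfap2c call without any 1 of the 4 libraries (highest adjusted p 0.17), and Slc5a6 without siTfap2c replicate 1 or Ctrl replicate 2 (highest adjusted p 0.078). Slc52a3 kept the siTfap2c call without each of the 4 libraries in turn. Slc23a2 lost the CdxE2_KO call without any 1 of the 4 libraries (highest adjusted p 0.14).

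The mitochondrial carrier family, Slc25a, most of whose members sit in the inner mitochondrial membrane, formed the largest class, with 32 members. The glutamate carrier Slc25a22 stood at 2.12 and 2.19 log2 units in siTfap2c libraries, against 3.64 and 3.74 in Ctrl libraries, and fell (log2 fold change -1.53 ± 0.25 SE, adjusted p = 0.002). Slc25a39, which brings glutathione into mitochondria, stood at 2.15 and 2.29 log2 units in siTfap2c libraries, against 2.90 and 3.25 in Ctrl libraries, and fell (log2 fold change -0.86 ± 0.14 SE, adjusted p = 0.0022). The dicarboxylate carrier Slc25a10 also fell (-0.58). Slc25a41, an ATP-magnesium and phosphate carrier, stood at 3.25 and 3.29 log2 units in siTfap2c libraries, against 2.45 and 2.42 in Ctrl libraries, and rose (log2 fold change 0.84 ± 0.19 SE, adjusted p = 0.012). Slc25a44, a carrier of branched-chain amino acids (0.53), Slc25a51, which carries NAD (0.53), the pyrimidine nucleotide carrier Slc25a36 (0.44) and the ATP-magnesium carrier Slc25a25 (0.41) rose as well, and Slc25a21 fell (-0.67). That makes 5 of 32 higher and 4 lower, with Slc25a21 a member through CdxE2_KO alone. Among all genes, 12.6% were higher and 11.9% lower in siTfap2c. Slc25a41 and Slc25a21 lost the siTfap2c calls without any 1 of the 4 libraries (highest adjusted p 0.066 and 0.089), Slc25a51 without siTfap2c replicate 1 or Ctrl replicate 1 (highest adjusted p 0.072), and Slc25a36 without siTfap2c replicate 2 or Ctrl replicate 2 (highest adjusted p 0.072). Slc25a22, Slc25a39, Slc25a10, Slc25a44 and Slc25a25 kept the siTfap2c calls without each of the 4 libraries in turn.

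In the motif knockouts the ADP and ATP exchanger Slc25a4 rose. It stood at 6.99 and 6.53 log2 units in Arpc1bE_CdxE1_KO libraries and 6.56 and 6.89 in CdxE2_KO libraries, against 5.72 and 5.66 in Ctrl libraries (log2 fold change 1.08 ± 0.17 SE, adjusted p = 0.0098 in Arpc1bE_CdxE1_KO, and log2 fold change 1.04 ± 0.17 SE, adjusted p = 0.0079 in CdxE2_KO). With equal library sums the differences were 0.75 (adjusted p = 0.056) in Arpc1bE_CdxE1_KO and 0.74 (adjusted p = 0.041) in CdxE2_KO. Slc25a15, the ornithine carrier (0.51 in Arpc1bE_CdxE1_KO and 0.51 in CdxE2_KO), Slc25a32, a carrier of folate and FAD (0.52 in Arpc1bE_CdxE1_KO and 0.71 in CdxE2_KO), and Slc25a41 (0.77 in Arpc1bE_CdxE1_KO and 0.69 in CdxE2_KO) were higher in both, and Slc25a30 in CdxE2_KO (0.77). Slc25a5, another ADP and ATP exchanger with pseudogene copies, was higher in Arpc1bE_CdxE1_KO (0.43). Slc25a18, a glutamate carrier related to Slc25a22, stood at 1.34 and 1.53 log2 units in Arpc1bE_CdxE1_KO libraries, against 1.98 and 2.54 in Ctrl libraries, and fell (log2 fold change -0.82 ± 0.21 SE, adjusted p = 0.034). With equal library sums the difference was -1.07 (adjusted p = 0.051). It overlaps Atp6v1e1 on the opposite strand. Slc25a32, Slc25a5 and Slc25a18 lost the Arpc1bE_CdxE1_KO calls without Arpc1bE_CdxE1_KO replicate 1, Ctrl replicate 1 or Ctrl replicate 2 (highest adjusted p 0.15, 0.16 and 0.17), Slc25a15 without Arpc1bE_CdxE1_KO replicate 2, Ctrl replicate 1 or Ctrl replicate 2 (highest adjusted p 0.15), and Slc25a4 and Slc25a41 without Ctrl replicate 1 or Ctrl replicate 2 (highest adjusted p 0.071 and 0.079). Slc25a15 and Slc25a30 lost the CdxE2_KO calls without any 1 of the 4 libraries (highest adjusted p 0.13 and 0.13), Slc25a32 without CdxE2_KO replicate 1, CdxE2_KO replicate 2 or Ctrl replicate 2 (highest adjusted p 0.064), and Slc25a4 and Slc25a41 without CdxE2_KO replicate 2, Ctrl replicate 1 or Ctrl replicate 2 (highest adjusted p 0.054 and 0.077). In Arpc1bE_CdxE1_KO 5 of 32 mitochondrial carriers rose and 1 fell, and in CdxE2_KO 8 rose. Among all genes, 23.2% were higher and 0.815% lower in Arpc1bE_CdxE1_KO, and 28.5% were higher in CdxE2_KO. With equal library sums 0 of the 32 carriers were called in Arpc1bE_CdxE1_KO and 1 in CdxE2_KO, beside 2.87% and 6.37% of all genes. At an unadjusted p under 0.05, 2 of the carriers were then higher and 8 lower in Arpc1bE_CdxE1_KO. The equal-sum differences were 0.20 (adjusted p = 0.39) in Arpc1bE_CdxE1_KO and 0.23 (adjusted p = 0.3) in CdxE2_KO for Slc25a15, 0.24 (adjusted p = 0.31) in Arpc1bE_CdxE1_KO and 0.46 (adjusted p = 0.072) in CdxE2_KO for Slc25a32, and 0.49 (adjusted p = 0.094) in Arpc1bE_CdxE1_KO and 0.44 (adjusted p = 0.089) in CdxE2_KO for Slc25a41. For Slc25a30 the difference was 0.58 (adjusted p = 0.12) in CdxE2_KO, and for Slc25a5 0.11 (adjusted p = 0.58) in Arpc1bE_CdxE1_KO. In siKlf5 limma called 0 of 32, while 5 had an unadjusted p under 0.05.

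Of 20 ion exchangers and cotransporters, Slc12a7, the potassium and chloride cotransporter KCC4 (chr13:73733094-73816754, + strand), had the largest fall of all members in siTfap2c. It stood at 4.74 and 4.65 log2 units in siKlf5 libraries, 3.17 and 3.38 in siTfap2c libraries, 4.93 and 4.85 in Arpc1bE_CdxE1_KO libraries and 4.59 and 4.67 in CdxE2_KO libraries, against 4.88 and 4.94 in Ctrl libraries. The siTfap2c libraries lay below all 8 others (log2 fold change -1.64 ± 0.10 SE, adjusted p = 5.4e-06). Slc26a5, the anion carrier relative prestin, stood at 3.03 and 2.93 log2 units in siTfap2c libraries, against 2.15 and 1.63 in Ctrl libraries, and rose (log2 fold change 1.09 ± 0.25 SE, adjusted p = 0.011). Slc4a7, a sodium and bicarbonate cotransporter, stood at 3.05 and 2.79 log2 units in siTfap2c libraries, 2.95 and 2.70 in Arpc1bE_CdxE1_KO libraries and 3.10 and 2.89 in CdxE2_KO libraries, against 2.10 and 2.27 in Ctrl libraries, and was higher in siTfap2c (0.74), Arpc1bE_CdxE1_KO (0.64) and CdxE2_KO (0.81). Neither motif knockout call of Slc4a7 was kept with equal library sums, at 0.37 (adjusted p = 0.21) in Arpc1bE_CdxE1_KO and 0.57 (adjusted p = 0.069) in CdxE2_KO. Slc26a11 fell in siTfap2c (-0.94). That makes 2 of 20 higher and 2 lower in siTfap2c, beside 12.6% of all genes higher and 11.9% lower. As deposited, Slc12a7 differed by -0.28 (adjusted p = 0.057) in CdxE2_KO, and with equal library sums it was called lower there, at -0.57 (adjusted p = 0.02).

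Other members of that class were called in siKlf5 and CdxE2_KO. Slc12a4, the cotransporter KCC1, stood at 1.76 and 1.65 log2 units in siKlf5 libraries, against 2.19 and 2.34 in Ctrl libraries, and fell in siKlf5 (log2 fold change -0.56 ± 0.14 SE, adjusted p = 0.046). Slc34a2, a sodium and phosphate cotransporter, stood at 6.02 and 6.11 log2 units in siKlf5 libraries and 6.84 and 6.97 in CdxE2_KO libraries, against 6.45 and 6.37 in Ctrl libraries, and was lower in siKlf5 (log2 fold change -0.34 ± 0.09 SE, adjusted p = 0.048) and higher in CdxE2_KO (log2 fold change 0.50 ± 0.10 SE, adjusted p = 0.014). The CdxE2_KO call was lost with equal library sums, at 0.20 (adjusted p = 0.29). Slc26a2, a sulfate carrier, stood at 2.26 and 2.90 log2 units in CdxE2_KO libraries, against 1.36 and 1.69 in Ctrl libraries, and rose in CdxE2_KO (log2 fold change 1.05 ± 0.23 SE, adjusted p = 0.018). Its difference with equal library sums was 0.84 (adjusted p = 0.075). Slc26a5 lost the siTfap2c call without siTfap2c replicate 1 or Ctrl replicate 2 (highest adjusted p 0.085), and Slc4a7 and Slc26a11 without siTfap2c replicate 1 (highest adjusted p 0.055 and 0.0501). Slc12a7 kept the siTfap2c call without each of the 4 libraries in turn. Slc4a7 lost the Arpc1bE_CdxE1_KO call without Arpc1bE_CdxE1_KO replicate 1, Ctrl replicate 1 or Ctrl replicate 2 (highest adjusted p 0.14). Slc4a7 and Slc34a2 lost the CdxE2_KO calls without any 1 of the 4 libraries (highest adjusted p 0.075 and 0.094), and Slc26a2 without CdxE2_KO replicate 2, Ctrl replicate 1 or Ctrl replicate 2 (highest adjusted p 0.1). Slc12a4 and Slc34a2 lost the siKlf5 calls without any 1 of the 4 libraries (highest adjusted p 0.23 and 0.23).

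In the small classes single members were called. Slc13a2, a dicarboxylate and citrate carrier, stood at 2.06 and 2.21 log2 units in siTfap2c libraries, against 3.34 and 3.29 in Ctrl libraries, and fell in siTfap2c (log2 fold change -1.18 ± 0.13 SE, adjusted p = 0.00021). Its antisense gene Slc13a2os overlaps it. Slc5a3, which carries the osmolyte myo-inositol, stood at 6.40 and 6.35 log2 units in siTfap2c libraries and 6.31 and 6.53 in CdxE2_KO libraries, against 5.81 and 5.79 in Ctrl libraries, and was higher in siTfap2c (log2 fold change 0.57 ± 0.11 SE, adjusted p = 0.0037) and CdxE2_KO (log2 fold change 0.62 ± 0.12 SE, adjusted p = 0.012). The CdxE2_KO call was not kept with equal sums, at 0.32 (adjusted p = 0.16). Mrps6 overlaps Slc5a3 on the same strand. Slc44a2, a choline carrier, stood at 2.36 and 2.58 log2 units in siKlf5 libraries, against 3.00 and 3.18 in Ctrl libraries, and fell in siKlf5 (log2 fold change -0.62 ± 0.14 SE, adjusted p = 0.033). Slc27a4, a fatty acid carrier, was lower in siTfap2c (-0.43) and higher in CdxE2_KO (0.51), where equal sums gave 0.25 (adjusted p = 0.21). Slc35a4, of the nucleotide sugar carriers, stood at 3.84 and 3.86 log2 units in CdxE2_KO libraries, against 4.17 and 4.16 in Ctrl libraries, and fell in CdxE2_KO (log2 fold change -0.32 ± 0.10 SE, adjusted p = 0.048). With equal sums it remained called, at -0.60 (adjusted p = 0.021). The creatine carrier Slc6a8 was not called in any contrast (log2 fold change -0.15 in siKlf5, -0.15 in siTfap2c, 0.10 in Arpc1bE_CdxE1_KO and 0.12 in CdxE2_KO). Slc27a4 lost the siTfap2c call without siTfap2c replicate 1, Ctrl replicate 1 or Ctrl replicate 2 (highest adjusted p 0.17). Slc13a2 and Slc5a3 kept the siTfap2c calls without each of the 4 libraries in turn. Slc44a2 lost the siKlf5 call without any 1 of the 4 libraries (highest adjusted p 0.18). Slc27a4 and Slc35a4 lost the CdxE2_KO calls without any 1 of the 4 libraries (highest adjusted p 0.094 and 0.19), and Slc5a3 without CdxE2_KO replicate 2, Ctrl replicate 1 or Ctrl replicate 2 (highest adjusted p 0.081).

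**Figure D4:**
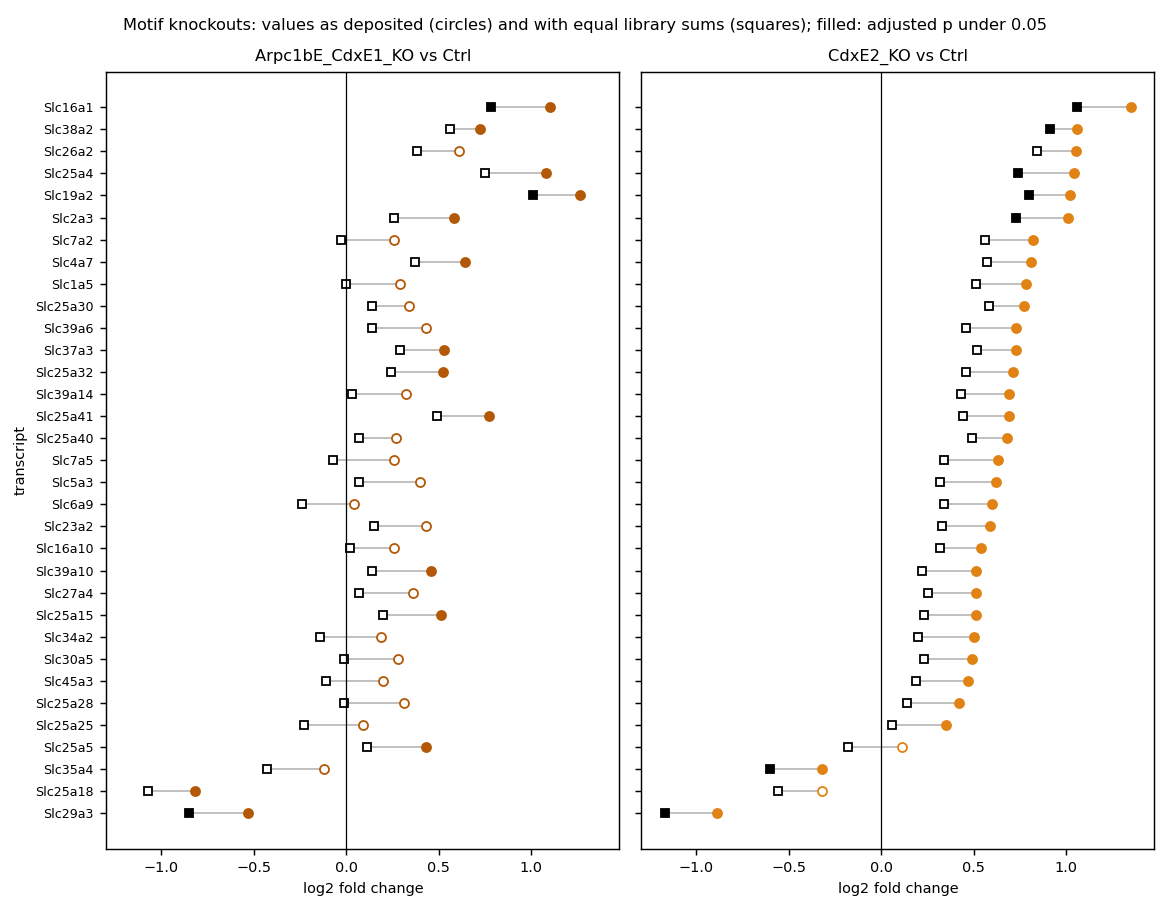
Log2 fold change against Ctrl in both motif knockouts, as deposited (circles) and with library sums made equal (squares), for the 33 members called in either as deposited, with filled symbols called by limma and open symbols not called. Slc16a1 and Slc19a2 are filled and above 0 on both scales, Slc29a3 is filled and below 0 on both, and each square lies left of its circle.

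In at least 1 of the 4 contrasts with Ctrl 75 of 146 members were called, 51.4% beside 51.2% of all 11195 genes, and 71 were called in none. These contrasts share the Ctrl libraries. The direct difference between siTfap2c and siKlf5 does not use the Ctrl values, but the fit took its spread and gene filter from all 10 libraries, Ctrl included. In this comparison 43 of 146 members were called, 25 higher and 18 lower in siTfap2c. That is 29.5% beside 25.6% of all genes, of which 15.1% were higher and 10.5% lower. The count was 26 without siTfap2c replicate 1, 31 without siTfap2c replicate 2, 33 without siKlf5 replicate 1 and 30 without siKlf5 replicate 2. With libraries centred on their medians the split was 19 higher and 22 lower.

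Carriers of the same superfamily under other symbols, and accessory genes, were taken from a list of 56 and 14 genes, of which 40 and 11 were tested. In siTfap2c 8 of the 40 carriers rose and 7 fell, and of the 11 accessory genes 3 rose and 1 fell. In siKlf5 2 carriers rose and 4 fell, and 1 accessory gene fell. In Arpc1bE_CdxE1_KO 6 carriers and 4 accessory genes rose, and in CdxE2_KO 6 carriers rose and 2 fell while 5 accessory genes rose and 1 fell. Of these 51 genes together, 7 were called in siKlf5, 19 in siTfap2c, 10 in Arpc1bE_CdxE1_KO and 14 in CdxE2_KO. Whether their calls held without each library was not examined, unlike for the members. The shares of all genes called were 7.52%, 24.6%, 24% and 29.9%, in the same order. With equal library sums 0 carriers rose and 1 fell in Arpc1bE_CdxE1_KO and 1 rose and 3 fell in CdxE2_KO, and in each motif knockout 1 accessory gene rose and 1 fell. Together 3 of the 51 genes were then called in Arpc1bE_CdxE1_KO and 6 in CdxE2_KO, beside 2.87% and 6.37% of all genes. The largest falls in siTfap2c were those of Slc35e4 (-1.81), the lysosomal carrier Mfsd1 (-1.46) and the prostaglandin carrier Slco2a1 (-1.35). Txnip, which restrains glucose uptake by the Slc2a carriers, rose in siTfap2c by 1.28, and Sgk3, a kinase that raises carrier activity, by 1.10. Txnip was also higher in CdxE2_KO (0.76) and Sgk3 in Arpc1bE_CdxE1_KO (0.46). With equal library sums neither call was kept, at 0.61 (adjusted p = 0.091) and 0.14 (adjusted p = 0.5). The accessory gene Ostm1 was higher in siTfap2c (1.02), Arpc1bE_CdxE1_KO (0.88) and CdxE2_KO (0.99), against the same Ctrl libraries. Its motif knockout calls were kept with equal sums, at 0.57 (adjusted p = 0.043) in Arpc1bE_CdxE1_KO and 0.70 (adjusted p = 0.018) in CdxE2_KO. The accessory gene that fell, Nedd4l, was lower in siKlf5 (-0.57), siTfap2c (-0.48) and CdxE2_KO (-0.45), also against the same Ctrl libraries. At equal sums Nedd4l was called lower in both motif knockouts, by -0.56 (adjusted p = 0.047) in Arpc1bE_CdxE1_KO and -0.74 (adjusted p = 0.017) in CdxE2_KO. Sfxn4, a sideroflexin of mitochondria, was higher in siKlf5 (0.67, adjusted p = 0.049), siTfap2c (1.09), Arpc1bE_CdxE1_KO (0.74) and CdxE2_KO (0.86), all against the same Ctrl libraries. Neither of its motif knockout calls was kept with equal library sums, at 0.55 (adjusted p = 0.16) in Arpc1bE_CdxE1_KO and 0.69 (adjusted p = 0.08) in CdxE2_KO.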

How the data were processed

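Total RNA of 8-cell mouse embryos was sequenced as 10 libraries, 2 in each of 5 groups. The deposited log2 values, 1 per gene and library, were made by the authors and stand in 3 tables, 1 for each knockdown and 1 for the motif knockouts with Ctrl. Exact zeros put the added constant at 1, and the kind of abundance is not named. StringTie 1.3.4, Cufflinks, SAMtools 1.7 and HISAT2 2.1.0 were used on mm10, per the submitters' processing notes. Whether counting used strand is not given in the sources used here. No counts were used here and the depth is unknown, and an exact 0 can be a failed estimate. The added constant understates changes of genes with low values.

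Each gene that reached 1 linear unit in 2 or more fitted libraries was tested on its log2 values (limma 3.58.1, R 4.3.3, eBayes with a trend). A call is an adjusted p under 0.05, adjusted over all genes tested by Benjamini-Hochberg, and all adjusted p in the text are from limma. Knockdowns were fitted on all 10 libraries, since Ctrl stands in another table than they do, and motif knockouts on the 6 libraries of their own table. The fits were run on simulated data with independent noise and changes added to single genes. The simulation held no shift of whole libraries and no scaling between tables, so it does not bear on these. The members, substrate classes, lists and alternatives were chosen with earlier results of these data known. Named are textbook carriers of the early embryo, up to 4 called members per class of sugar, monocarboxylate, amino acid, metal and nucleoside carriers and contrast with a log2 change of at least 0.5, up to 6 rises and 6 falls per contrast in the remaining classes (no overlap of libraries, higher mean of at least 2 linear units), and genes at the edge of the threshold. Other called members in the text were chosen after their values were seen. Gene positions and overlaps are from GENCODE M21. Alternatives were median centring, equal library sums, a constant of 0.1, no filter, a filter at 5 units, other libraries in the fit, a replicate block, and leaving out each library.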

Additional observations from a re-analysis of the deposited data

Results flagged for a closer look

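For 43 members the knockdown effects against the same Ctrl libraries differed from each other in the direct limma comparison of siTfap2c with siKlf5, and the named genes that differed at least 2-fold are given here as log2 values, siTfap2c minus siKlf5. Lower in siTfap2c than in siKlf5 were the glutamate carrier Slc25a22 (-1.48), the potassium and chloride cotransporter Slc12a7 (-1.42), the zinc importer Slc39a2 (-1.41), the dicarboxylate carrier Slc13a2 (-1.03) and the glucose carrier Slc2a3 (-1.01). Higher in siTfap2c than in siKlf5 were the magnesium carrier Slc41a2 (1.79), the zinc carrier Slc39a11 (1.36), the thiamine carriers Slc19a3 (1.34) and Slc19a2 (1.25), and Slc26a5 (1.07). The siTfap2c and siKlf5 values stand in separate tables, and whether these were scaled together is not given in the sources used here.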

How the results depend on the processing

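Of the alternatives for the 84 members named or called, 3140 left the side of the threshold as it was, 373 lost a call and 50 gained it. Each member was counted in all 4 contrasts with Ctrl, called or not. Most of the 3140 are therefore differences without a call to lose, and only the called differences could give the 373. Differences without a call that crossed 0 are counted among the 3140. In 0 cases did a called direction turn. Called members numbered 9 in siKlf5, 50 in siTfap2c, 14 in Arpc1bE_CdxE1_KO and 31 in CdxE2_KO. Without 1 library they ranged from 1 to 4 in siKlf5, from 28 to 33 in siTfap2c, from 2 to 15 in Arpc1bE_CdxE1_KO, from 4 to 15 in CdxE2_KO, from 26 to 33 between the knockdowns, and from 0 to 2 between the motif knockouts. Where a group was left with 1 library, that library was assumed to vary like the others. Without the filter on low values 4 members were called in siKlf5, 4 in Arpc1bE_CdxE1_KO and 18 in CdxE2_KO; the cause was not tested. Arpc1bE_CdxE1_KO counted 5 with median centring and 4 with equal library sums, and CdxE2_KO 10 with median centring and 9 with equal sums, where the shift of all genes is taken out. Median centring changed the share of higher calls over all genes in siKlf5 to 46.2%, against 29.9% as deposited. The member count was 178 at a threshold of 0.5 linear units and 115 at 2. With the replicate block the counts were 6 in siKlf5, 47 in siTfap2c, 15 in Arpc1bE_CdxE1_KO, 33 in CdxE2_KO, 41 between the knockdowns and 0 between the motif knockouts. The replicate numbers did not pair the samples: the correlation of deviations was -0.05 to 0.044 over 10 pairs of groups, above 0 in 5 of them.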
